A study of Mus musculus with 19 samples.

Results

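The voltage-gated sodium channel genes of sensory neurons were followed through 19 RNA-seq libraries of GFP-positive cells sorted from dorsal root ganglia (DRGs). The rule named 9 genes, which are the α subunits Scn1a, Scn3a, Scn8a, Scn9a, Scn10a and Scn11a and the β subunits Scn2b, Scn3b and Scn4b. Of these, 7 were found by gene name among the 12629 genes of the expression table, with 4 α subunits and 3 β subunits. Scn3a and Scn8a were not analysed here. The rule itself uses no measured value.

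Without crush there are 5 libraries with GFP (GFP-naive) and 6 with α9k1 (α9k1-naive), and with crush there are 4 of each (GFP-crush and α9k1-crush). In the GFP groups, 4 cervical ganglia per animal were injected with AAV5-CMV-fGFP, which carries GFP alone. In the α9k1 groups they received AAV5-CAG-α9-V5, which carries the integrin α9, together with AAV5-CMV-kindlin1-GFP, which carries the integrin activator kindlin-1 tagged with GFP. In the crush groups the dorsal roots were crushed at the time of injection, and the roots of the naive groups were left intact. All ganglia were removed after 8 weeks, and the labels give 5000 to 10000 sorted cells per library. The methods of the study give a lower minimum and the same maximum. The promoters CMV and CAG are not restricted to neurons. By the methods, GFP-positive cells were taken after scatter gates had been set on nestin-GFP cells of DRGs, and the labels call the sorted cells neurons. The labels name C57BL/6 mice, whereas the methods of the study name adult male Lewis rats, and the reads were aligned to the mouse genome. Between 3.87% and 4.05% of aligned bases differed from the mouse reference. The part that mapping across species may have in the level of any one gene was not tested.

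Voltage-gated sodium channels open when the membrane is depolarized and carry the inward current of the action potential. The large α subunit forms the pore and the voltage sensors, and the small single-pass β subunits change gating, surface expression and adhesion. In DRGs, Scn10a and Scn11a encode channels of small nociceptors that resist tetrodotoxin, whereas Scn1a and Scn9a encode channels that tetrodotoxin blocks. Scn1a is best known from myelinated large-diameter neurons, and Scn9a amplifies small depolarizations in nociceptors and sympathetic neurons.

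The 4 α subunit genes lie in 2 neighbouring pairs in GRCm38, by the coordinates of the authors' gene table. Scn1a (ENSMUSG00000064329) was at chr2:66270778-66440840 and Scn9a (ENSMUSG00000075316) at chr2:66480080-66634962, both on the minus strand with 39.24 kb between them. Scn10a (ENSMUSG00000034533) was at chr9:119608456-119719032 and Scn11a (ENSMUSG00000034115) at chr9:119753763-119825456, also on the minus strand, with 34.731 kb between them. Of the β subunit genes on the plus strand of chromosome 9, Scn2b (ENSMUSG00000070304) was at chr9:45117876-45130070 and Scn4b (ENSMUSG00000046480) at chr9:45138437-45154152, with 8.367 kb between them, and Scn3b (ENSMUSG00000049281) was at chr9:40269216-40291618. Because the libraries carry no strand, reads from the 180 exonic bases that Scn9a shares with the antisense gene Gm13629 (1.41% of its exon length) cannot be assigned to either gene. Stretches of 31 bases shared with other channel genes made up 7.26% of those of Scn1a, 5.87% for Scn9a, 3.03% for Scn10a, 0.102% for Scn11a and none for the β subunits. These stretches alone do not tell the genes apart. The reads are longer than 31 bases and can reach beyond them, and how many stay ambiguous was not tested.

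Resistance to tetrodotoxin is set largely by a residue of the outer pore in the first domain, which is aromatic in sensitive channels and a serine in the resistant channels of DRGs. The codon of this residue is shown for the α subunits of nociceptors because it divides them by function. The sequences are from GENCODE transcripts on GRCm38, 5′ to 3′ on the coding strand, and all 3 are coding sequence in exon 9, with the codon in capitals. The windows lie at chr2:66548989-66549015 in Scn9a, chr9:119666375-119666401 in Scn10a and chr9:119805668-119805694 in Scn11a.
Scn9a: atgactcaggacTACtgggagaacctt
Scn10a: atgacgcaggacTCCtgggaacggctg
Scn11a: atgactcaagacTCCtgggagaagctt
Scn10a and Scn11a carry the same codon, TCC, and Scn9a carries TAC. The sequences are those of the reference and were not read from the libraries.

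The values are log2 counts normalized by the authors for gene length and depth, and they are called log2 levels here. Across all genes the mean log2 level barely followed exon length (slope 0.0452 per log2 unit of length), so levels were compared between genes on this scale. Over the 19 libraries the mean log2 level was 3.14 for Scn1a, 3.73 for Scn9a, 4.46 for Scn11a and 5.02 for Scn10a among the α subunits, and 3.93 for Scn2b, 5.16 for Scn4b and 5.24 for Scn3b among the β subunits. The median of all genes was 4.37. Scn1a was thus the lowest of the 7 and lay at percentile 21.9 of all genes, and Scn3b was the highest at percentile 67.2. Scn4b and Scn1a varied most, over 3.30 and 3.12 log2 units between the lowest and the highest library, and Scn9a varied least, over 1.64 units.

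Group differences are given as log2 fold changes (log2FC) of a limma fit to all genes with 3 technical covariates, and a gene is said to be called where its p, adjusted over the whole table by Benjamini-Hochberg, was under 0.1. The covariates differ between the groups, with 74.5% of the variance of the third component between groups, and they widen the SE 2.49 times for α9k1-crush versus GFP-crush and 2.26 times for α9k1-crush versus α9k1-naive. For the 7 genes, values without covariates are therefore set beside them where the call differs, and for lists of other genes the counts of calls without covariates are given. To that extent the covariates and the groups cannot be told apart. The third component was lower in all 4 α9k1-crush libraries (-1.91 to -1.08) than in any other library (-0.68 to 2.14), and 1.35% to 1.62% of their aligned bases were intronic against 2.11% to 2.93% in GFP-crush.

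Sequencing depth ran from 36.4 to 87.6 M read pairs, and 47.5% to 54.1% of reads aligned. The depth behind a single value is unknown without counts, and the SD between libraries includes its counting error. The genes of the transgenes checked the labels. Fermt1 (kindlin-1) had a log2 level of 0.62 ± 0.16 (SD, n = 5) with GFP and 5.58 ± 0.33 (n = 6) with α9k1 in the naive groups, and of 0.57 ± 0.12 (n = 4) and 7.17 ± 0.66 (n = 4) after crush, with no overlap between GFP and α9k1 libraries. Itga9 (integrin α9) was at 2.11 ± 0.25, 3.87 ± 0.92, 1.51 ± 0.44 and 6.59 ± 0.82 in the same order, and its naive groups overlapped. Between the α9k1 groups both genes were higher with crush without overlap. The log2FC was 1.67 for Fermt1 (limma adjusted p = 0.0591) and 3.51 for Itga9 (adjusted p = 0.0404). Both calls were lost when only the 2 groups were compared (adjusted p = 0.411 and 0.553). The part of transgene level in the differences between the α9k1 groups was not tested. All 12 neuronal markers were in the table, with a log2 summed level of 12.8 to 14.1 per library. All 13 glial markers were also in the table, and their log2 summed level of 14.5 to 16.8 was above that of the neuronal markers in each group, with most of it from Apoe.

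**Figure D1:**
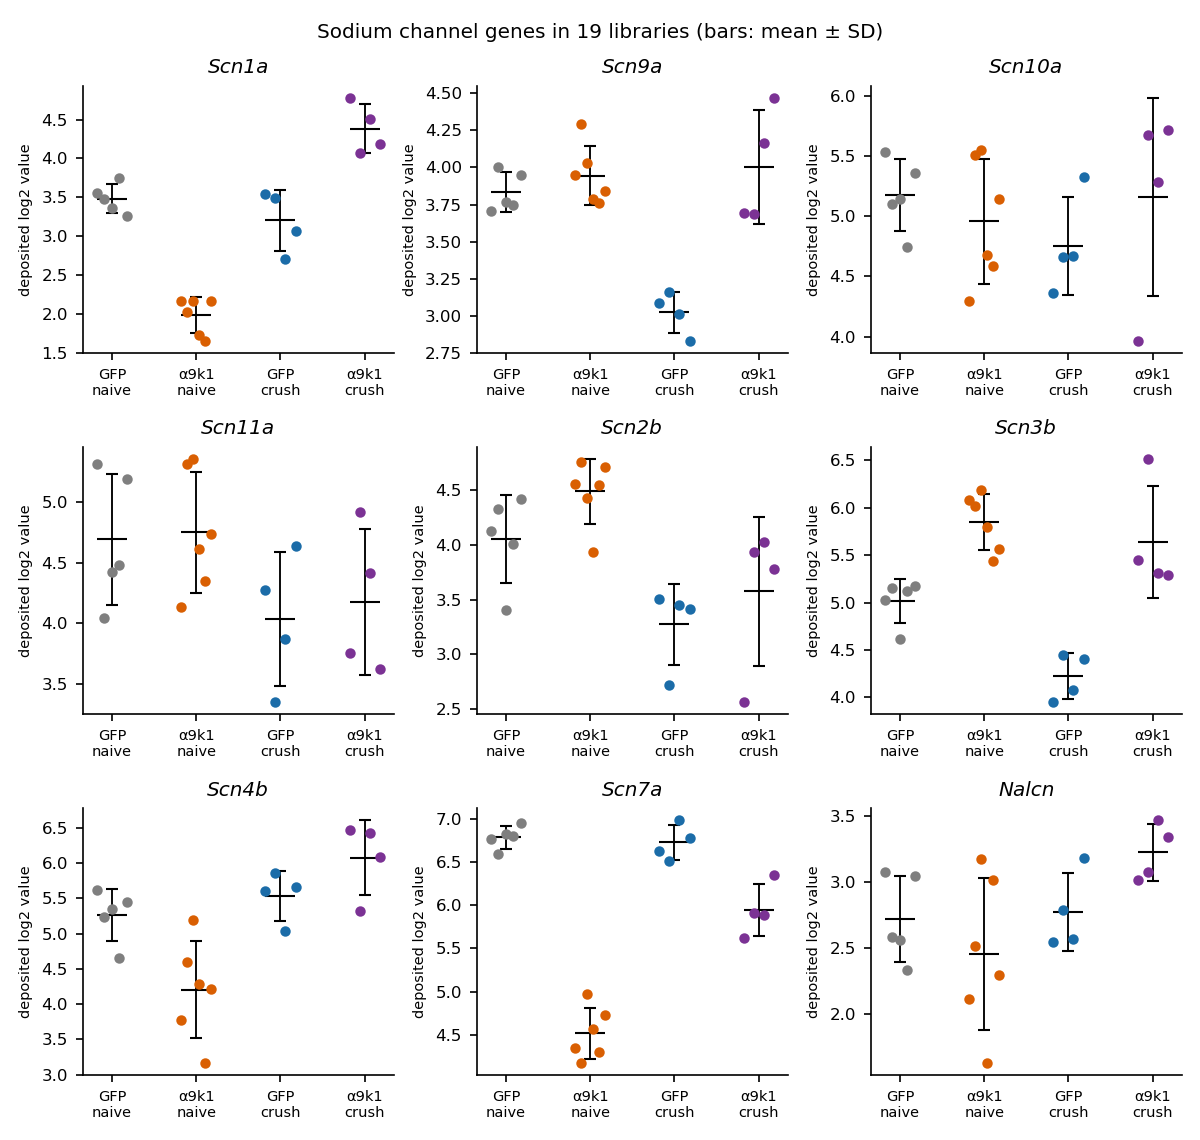
Deposited log2 level (vertical axis, log2 units, a separate scale per gene) of 7 sodium channel genes and of the related genes Scn7a and Nalcn in the 19 libraries. Points are libraries and bars are the mean ± SD of the 4 groups. Scn1a is lowest in α9k1-naive and highest in α9k1-crush without overlap, and Scn9a and Scn3b are lowest in GFP-crush without overlap.

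Scn1a, the α subunit of large myelinated neurons, differed most between the groups. The log2 level was 3.56, 3.48, 3.37, 3.75 and 3.26 in the GFP-naive libraries. In the 6 α9k1-naive libraries it ran from 1.65 through a median of 2.09 to 2.17. After crush it was 3.55, 3.49, 2.71 and 3.07 with GFP and 4.78, 4.07, 4.50 and 4.19 with α9k1. All 6 α9k1-naive libraries lay below all other libraries and all 4 α9k1-crush libraries lay above all others, whereas GFP-naive and GFP-crush overlapped. Without crush, Scn1a fell with α9k1 at a log2FC of -1.72 (SE 0.21, limma adjusted p = 4.62e-05). Within the α9k1 groups it rose with crush by log2FC 2.13 (SE 0.38, adjusted p = 0.00651), and the unadjusted means differed 5.28-fold. This call was lost when only the 2 groups were compared (1.65, adjusted p = 0.231). The interaction, or the difference between the α9k1 effects with and without crush, was 2.38 (SE 0.44, adjusted p = 0.0205). For α9k1-crush versus GFP-crush the log2FC was 0.66 with a 95% interval of -0.33 to 1.65 (adjusted p = 0.72) with covariates, and 1.18 (SE 0.19, adjusted p = 8.67e-05) without.

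Scn9a, the tetrodotoxin-sensitive α subunit of nociceptors, was lower after crush with GFP. Its log2 level was 3.70, 4.0, 3.77, 3.75 and 3.95 in GFP-naive and 3.08, 3.16, 3.01 and 2.83 in GFP-crush, and these groups did not overlap. It ran from 3.76 through a median of 3.90 to 4.29 in α9k1-naive, and it was 3.69, 3.69, 4.17 and 4.47 in α9k1-crush. All 4 GFP-crush libraries lay below the other 15, and the other 3 groups overlapped each other. Scn9a fell with crush in the GFP groups at a log2FC of -0.88 (SE 0.16, adjusted p = 0.00353). In the α9k1 groups the log2FC with crush was -0.27 with a 95% interval of -0.90 to 0.35 (adjusted p = 0.647). The difference between these crush effects did not pass the test with covariates (interaction 0.61, SE 0.34, adjusted p = 0.445) and passed it without (0.87, SE 0.21, adjusted p = 0.00545). After crush, the log2FC of α9k1 against GFP was 0.59 (interval -0.17 to 1.35, adjusted p = 0.651) with covariates and 0.98 (SE 0.16, adjusted p = 8.39e-05) without.

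The promoters of Scn1a and Scn9a are shown because these neighbours were the only α subunits of the rule called in a comparison. With covariates they were called in different ones. Without covariates both were also called for α9k1-crush versus GFP-crush and in the interaction. Each is the 250 bases before the RefSeq start on GRCm38.p6, on the strand of the gene, at chr2:66440838-66441087 for Scn1a and chr2:66634963-66635212 for Scn9a. Capitals mark a CCAAT box.
Scn1a: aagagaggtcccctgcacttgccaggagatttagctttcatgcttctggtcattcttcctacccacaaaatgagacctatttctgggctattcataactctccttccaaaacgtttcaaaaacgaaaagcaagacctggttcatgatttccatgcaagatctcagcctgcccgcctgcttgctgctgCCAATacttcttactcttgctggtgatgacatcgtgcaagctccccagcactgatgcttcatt
Scn9a: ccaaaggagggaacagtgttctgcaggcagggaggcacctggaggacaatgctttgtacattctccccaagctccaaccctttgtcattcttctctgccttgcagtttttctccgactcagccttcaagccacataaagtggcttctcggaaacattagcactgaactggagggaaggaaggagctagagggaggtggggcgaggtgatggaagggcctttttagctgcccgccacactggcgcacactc
The Scn1a window holds CCAAT starting 63 bases before the start, and 33.85% of all 32851 upstream windows hold CCAAT on either strand. The Scn9a window holds none of the motifs searched on both strands, which were TATAAA (in 12.4% of all windows), CCAAT (33.85%), GGGCGG (32.7%), TGANTCA (6.75%), TGACGTCA (1.55%) and TTCAGCACC (0.301%). No searched motif overlaps another at the CCAAT of Scn1a. Among the other members with a window, Scn4b holds CCAAT and Scn10a, Scn11a and Scn2b hold none of the motifs. Scn3b was not matched to a window.

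Scn10a and Scn11a, the tetrodotoxin-resistant α subunits of nociceptors, passed the test in no comparison, with or without covariates. The log2 level of Scn10a was 5.54, 5.10, 5.14, 4.75 and 5.36 in GFP-naive, 4.36, 4.66, 4.67 and 5.33 in GFP-crush and 3.96, 5.67, 5.29 and 5.72 in α9k1-crush, and it ran from 4.29 through 4.91 to 5.56 in α9k1-naive. Replicate 1 of α9k1-crush was the lowest of all 19 libraries and the groups overlapped. Scn11a was 5.32, 4.04, 4.43, 4.48 and 5.20 in GFP-naive, 4.27, 3.35, 3.87 and 4.64 in GFP-crush and 3.76, 4.92, 4.41 and 3.62 in α9k1-crush, and it ran from 4.14 through 4.67 to 5.36 in α9k1-naive. Its groups overlapped as well. For α9k1-naive versus GFP-naive the 95% interval of the log2FC was -0.996 to 0.771 for Scn10a and -0.64 to 0.80 for Scn11a, and for α9k1-crush versus GFP-crush it was -2.16 to 1.70 and -2.16 to 0.99. The intervals after crush were wider than those without crush. The order of the group means was GFP-naive, α9k1-crush, α9k1-naive and GFP-crush for Scn10a, and α9k1-naive, GFP-naive, α9k1-crush and GFP-crush for Scn11a, and no neighbours in either order were apart.

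Scn3b, a β subunit that binds α subunits without a covalent bond, was highest in the α9k1 libraries. Its log2 level was 5.03, 5.15, 4.62, 5.12 and 5.17 in GFP-naive and ran from 5.44 through 5.91 to 6.19 in α9k1-naive. It was 3.95, 4.45, 4.08 and 4.41 in GFP-crush and 5.44, 6.51, 5.31 and 5.29 in α9k1-crush. Every α9k1 library lay above every GFP library, with or without crush, and GFP-crush lay below GFP-naive without overlap. Without crush, Scn3b rose with α9k1 by log2FC 0.66 (SE 0.26, adjusted p = 0.0848), and the call held in 8 of 19 fits that each left out 1 library and was lost when only the 2 groups were compared (0.48, adjusted p = 0.112). After crush, the log2FC of α9k1 against GFP was 0.41 with an interval of -0.81 to 1.63 (adjusted p = 0.884) with covariates and 1.42 (SE 0.24, adjusted p = 1.10e-04) without. Crush with GFP gave a log2FC of -0.60 (SE 0.26, adjusted p = 0.137) with covariates, and -0.80 (adjusted p = 0.0169) without, where it passed the test. With covariates it passed when replicate 2 of α9k1-crush, the highest library, was left out of the fit (-0.65, adjusted p = 0.0169).

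Scn4b, a β subunit linked to the resurgent current of fast-firing neurons, was lower with α9k1 in naive animals. Its log2 level was 5.62, 5.23, 5.35, 4.66 and 5.44 in GFP-naive and ran from 3.17 through 4.25 to 5.19 in α9k1-naive, with overlap in the upper libraries. It was 5.61, 5.85, 5.03 and 5.66 in GFP-crush and 6.47, 5.31, 6.43 and 6.09 in α9k1-crush, which also overlapped. α9k1-crush lay above α9k1-naive without overlap. Scn4b fell with α9k1 without crush at a log2FC of -1.30 (SE 0.40, adjusted p = 0.0325), and the call was lost when only the 2 groups were compared (-1.08, adjusted p = 0.171). The crush effect with α9k1 was 1.06 with an interval of -0.49 to 2.61 (adjusted p = 0.426) with covariates and 1.87 (SE 0.31, adjusted p = 1.00e-04) without. The interaction was 0.60 (SE 0.83, adjusted p = 0.81) and 1.59 (SE 0.45, adjusted p = 0.0147) in the same order.

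Scn2b, a β subunit that like Scn4b is joined to α subunits by a disulfide bond, was 4.13, 4.32, 3.40, 4.01 and 4.42 in GFP-naive and ran from 3.94 through 4.55 to 4.75 in α9k1-naive. Its log2 level was 3.51, 2.72, 3.45 and 3.42 in GFP-crush and 2.57, 3.93, 4.03 and 3.78 in α9k1-crush. Each crush group had 1 library more than 0.6 below its other libraries, which were replicate 2 of GFP-crush and replicate 1 of α9k1-crush. It passed the test in no comparison with covariates. Without covariates it was lower after crush both with GFP (-0.78, SE 0.27, adjusted p = 0.0476) and with α9k1 (-0.91, SE 0.26, adjusted p = 0.0084), where the values with covariates were -0.77 (SE 0.36, adjusted p = 0.156) and -1.38 (SE 0.64, adjusted p = 0.226). Scn4b, its neighbour on the chromosome, had its lowest mean in α9k1-naive, where Scn2b had its highest.

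**Figure D2:**
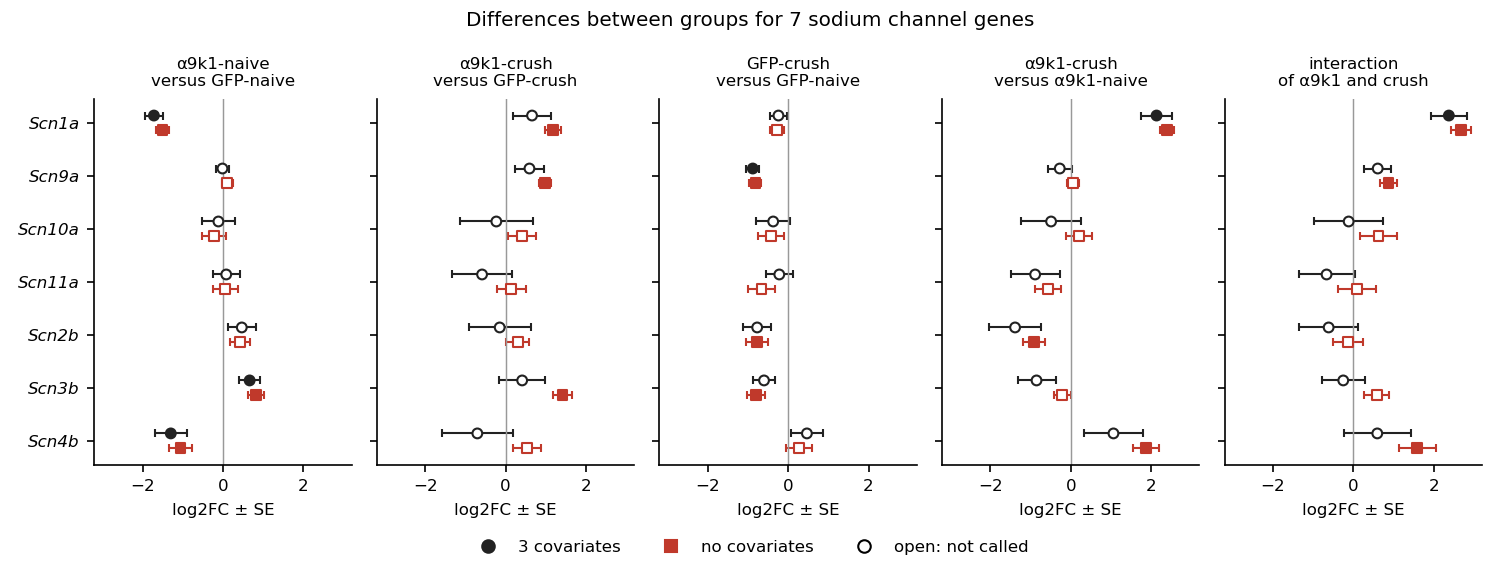
Log2FC ± SE (horizontal axis, log2 units) of the 7 sodium channel genes in the 4 comparisons and the interaction, with 3 covariates (black circles) and without (red squares). Filled symbols passed the limma test at an adjusted p under 0.1. With covariates, 3 genes are filled in the first panel, none in the second and 1 in each of the other 3.

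Counted over the members, 1 of 7 was higher and 2 of 7 were lower in α9k1-naive versus GFP-naive, beside 29.1% of all genes called, 11.4% higher and 17.6% lower. Without covariates the members gave the same counts, beside 46.0% of all genes called, 16.5% higher and 29.5% lower. α9k1-crush versus GFP-crush gave 0 of 7 by limma, beside 0.911% of all genes, 0.728% higher and 0.182% lower. At an unadjusted p under 0.05 it also gave 0 of 7, beside 1151 of the 12629 genes. Without covariates 3 of 7 were higher there, beside 58.0% of all genes called, 29.6% higher and 28.3% lower. In GFP-crush versus GFP-naive 1 of 7 was lower, beside 23.1% of all genes called, 7.39% higher and 15.7% lower, and without covariates 3 of 7 were lower, beside 31.1% called, 11.0% higher and 20.1% lower. In α9k1-crush versus α9k1-naive 1 of 7 was higher, beside 9.74% called, 4.47% higher and 5.27% lower, and without covariates 2 were higher and 1 was lower, beside 55.6% called, 28.5% higher and 27.1% lower. The interaction gave 1 of 7 higher, beside 2.20% of all genes, 1.35% higher and 0.847% lower, and without covariates 3 of 7 higher, beside 39.4%, 23.3% higher and 16.1% lower. With 7 genes, these counts do not set the members apart from all genes. The median log2FC of the members was -0.15 for α9k1-crush versus GFP-crush and -0.49 for α9k1-crush versus α9k1-naive. That of all genes was 0.01 and 0.001. Without covariates the members were at 0.54 and 0.06, beside 0.03 and 0.01. For α9k1-naive versus GFP-naive and for crush with GFP they were at 0.06 and -0.66 without covariates, beside -0.09 and -0.07. With covariates they were at -0.01 and -0.37 there, where the median of all genes was -0.08 in both. Centring each library on its median moved this median of all genes to 0.06 for crush with GFP, where 1826 genes were then higher and 1180 lower against 933 and 1984 before, and the interaction went from 171 higher and 107 lower to 118 and 167.

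Groups did not overlap for 2 of 7 genes in α9k1-naive versus GFP-naive, where Scn3b was higher and Scn1a lower, beside 21.7% of all genes (8.43% higher and 13.2% lower). In α9k1-crush versus GFP-crush this held for 3 of 7, with Scn1a, Scn9a and Scn3b higher, beside 40.8% of all genes (20.0% higher and 20.8% lower). It held for 2 of 7 in GFP-crush versus GFP-naive, with Scn9a and Scn3b lower, beside 19.8% (7.59% higher and 12.2% lower). In α9k1-crush versus α9k1-naive it held for 2 of 7, with Scn1a and Scn4b higher, beside 33.4% (17.4% higher and 16.1% lower). The comparisons share groups, so that a gene counted in one is not independent of its count in another.

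Scn10a and Scn11a together held the largest part of the α subunits on average in every group. On the linear scale of the levels, both together held 70.7% ± 5.9 (SD, n = 5) of the summed level of the 4 α subunits with GFP and 74.7% ± 5.5 (n = 6) with α9k1 in the naive groups, and 71.1% ± 7.6 (n = 4) and 59.2% ± 12.9 (n = 4) after crush. The share of Scn1a was 12.9% ± 3.3, 5.22% ± 1.4, 15.5% ± 5.0 and 23.6% ± 11.0 in the same order. Replicate 1 of α9k1-crush had the highest Scn1a share, 39.5%, and the other 3 libraries of that group lay between 15.1% and 22.4%. Within libraries, the log2 level of Scn1a minus that of its neighbour Scn9a was -0.35 ± 0.28 in GFP-naive, -1.96 ± 0.22 in α9k1-naive, 0.18 ± 0.34 in GFP-crush and 0.38 ± 0.56 in α9k1-crush, and the α9k1-naive libraries lay below all others.

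Among the β subunits, Scn3b led on average in α9k1-naive and Scn4b in the other 3 groups. Without crush Scn3b held 37.0% ± 5.4 of the summed level of the 3 genes with GFP and 57.7% ± 4.6 with α9k1, and after crush 24.9% ± 3.1 and 38.6% ± 16. Scn4b held 44.0% ± 8.0, 19.2% ± 5.9, 61.7% ± 5.6 and 52.1% ± 16.9 in the same order. The share of Scn3b did not overlap between α9k1-naive and GFP-naive, with 45.7% as the highest GFP-naive value and 51.5% as the lowest α9k1-naive value. In α9k1-crush, replicate 2 had 62.4% Scn3b, and the other 3 libraries had 27.9% to 32.4%.

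**Figure D3:**
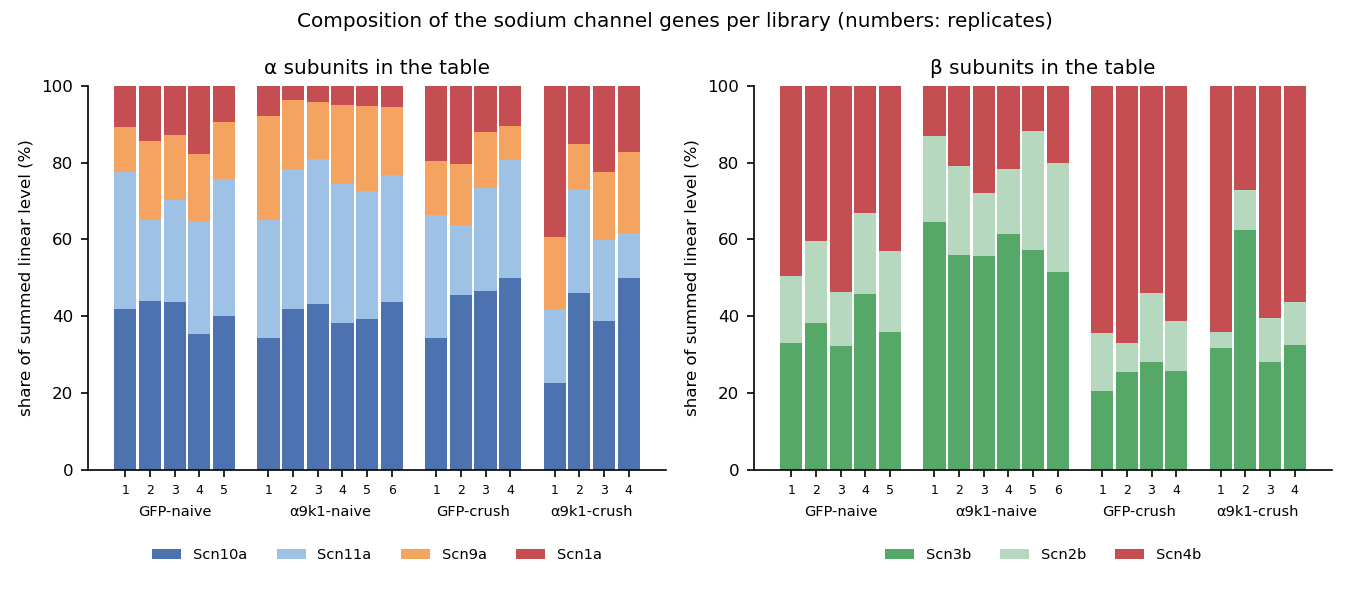
Share in percent (vertical axis) of each gene in the summed linear level of the 4 α subunits (left) and of the 3 β subunits (right), with 1 bar per library and the groups side by side. Scn1a (red, left) takes 3.73% to 7.83% in α9k1-naive and 15.1% to 39.5% in α9k1-crush, and Scn4b (red, right) has its smallest mean share in α9k1-naive.

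Other genes of the channel family examined were Scn7a, an atypical α subunit of glia and sensory neurons that is not gated by voltage in the usual way, and Nalcn, a sodium leak channel. The log2 level of Scn7a was 6.78 ± 0.13 in GFP-naive, 4.52 ± 0.30 in α9k1-naive, 6.73 ± 0.20 in GFP-crush and 5.94 ± 0.30 in α9k1-crush. It fell with α9k1 without crush (log2FC -2.07, SE 0.20, adjusted p = 2.87e-06) and rose by 1.52 (SE 0.35, adjusted p = 0.0228) with crush in the α9k1 groups. Scn1a and Scn7a thus both had their lowest mean in α9k1-naive, without overlap with any other group. After crush, Scn7a with α9k1 lay below its levels with GFP without overlap, whereas Scn1a lay above, and the log2FC of Scn7a was -0.38 (adjusted p = 0.857) with covariates and -0.79 (adjusted p = 0.00105) without. Its rise with crush in the α9k1 groups did not pass with only the 2 groups compared (1.71, adjusted p = 0.282). The mean log2 level of Nalcn ran from 2.46 in α9k1-naive to 3.23 in α9k1-crush. Nalcn passed the test in no comparison with covariates.

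Of 32 partners of sodium channels on a list of scaffold, adhesion, trafficking and kinase genes, 28 were in the table. With α9k1 and no crush, 1 rose and 12 fell, beside 11.4% of all genes higher and 17.6% lower, and the median log2FC was -0.30 against -0.08 for all genes. Without covariates 5 rose and 17 fell, beside 16.5% and 29.5% of all genes. Fgf13, an intracellular FGF that binds the channels' tail, rose by 0.80 (SE 0.17, adjusted p = 0.00345). The partners that fell most were Nfasc (-1.30, SE 0.20, adjusted p = 3.76e-04), which holds nodes of Ranvier together, Cntnap1 (-1.13, SE 0.17, adjusted p = 2.92e-04), which is part of the paranodal junction, and Ank3 (-0.81, SE 0.20, adjusted p = 0.00931), which anchors the channels at nodes and initial segments. With crush in the GFP groups, 1 partner rose and 6 fell (3 and 9 without covariates), beside 7.39% and 15.7% of all genes (11.0% and 20.1%), with Prkaca, a catalytic subunit of protein kinase A, at 0.49 (adjusted p = 0.0388) and Sptbn1, a spectrin, at -0.69 (adjusted p = 0.00425). The kinases Mapk14 (-0.61, adjusted p = 0.023), Prkce (-0.60, adjusted p = 0.0781) and Prkca (-0.54, adjusted p = 0.095), the last of which was named after its values were seen, were among those that fell. The calls of Prkaca, Sptbn1, Mapk14 and Prkce were lost when only the 2 groups were compared (adjusted p = 0.102 to 0.252), and that of Prkce also with quantile normalization (0.168), median-centred libraries (0.164) or array weights (0.111). With crush in the α9k1 groups, 3 rose and 1 fell (13 and 5 without covariates), beside 4.47% and 5.27% of all genes (28.5% and 27.1%). Nfasc rose by 1.20 (SE 0.37, adjusted p = 0.0706), the kinesin Kif5b by 0.90 (adjusted p = 0.0329) and the calmodulin Calm3 by 0.70 (adjusted p = 0.0438), and Fgf13 fell by 0.96 (SE 0.30, adjusted p = 0.0781). All 4 of these calls were lost when only the 2 groups were compared (adjusted p = 0.159 to 0.359). None of the 28 passed the test in α9k1-crush versus GFP-crush or in the interaction by limma with covariates. Without covariates 10 rose and 7 fell in the first, beside 58.0% of all genes called, and 13 rose and 3 fell in the second, beside 39.4% of all genes called.

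**Figure D4:**
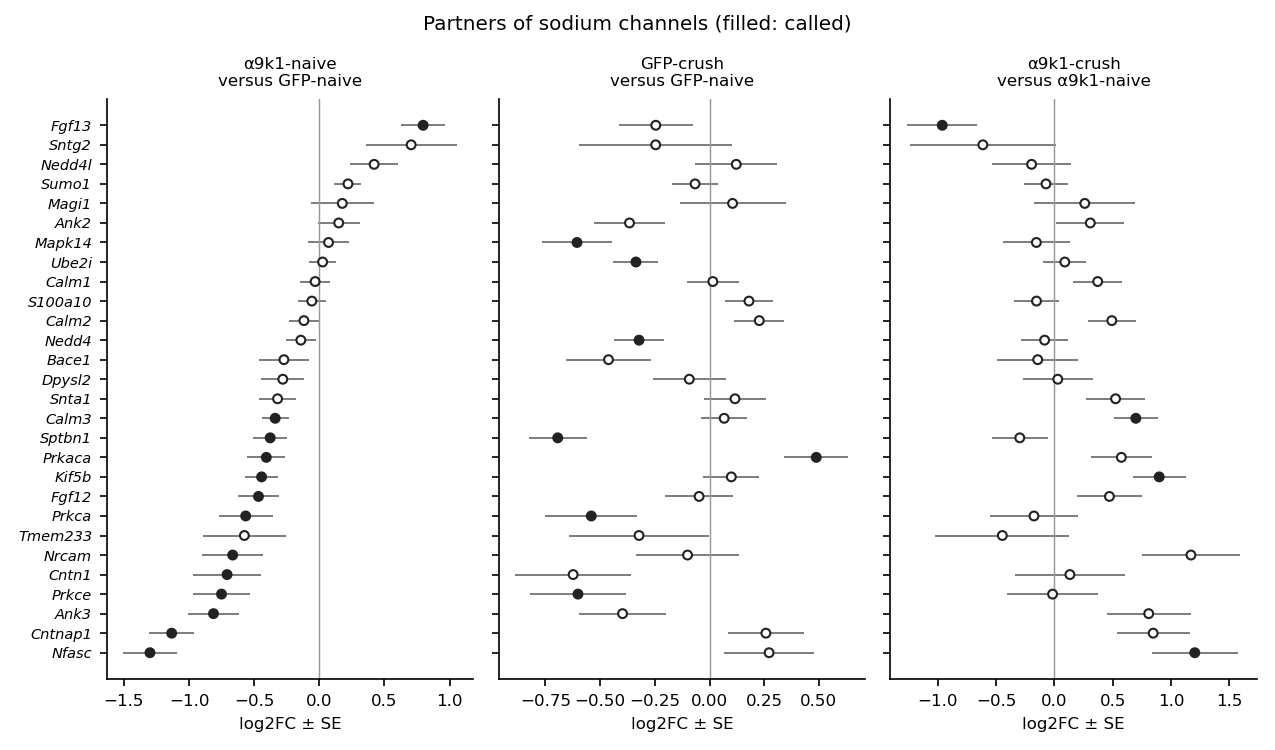
Log2FC ± SE (horizontal axis, log2 units, a separate scale per panel) of the 28 partners in the table for α9k1 without crush and for crush with GFP and with α9k1. Genes are ordered by the first panel and filled points passed the limma test with covariates, which are 13, 7 and 4 genes.

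Markers of cell types moved with some of these differences. The 8 of 9 large-fibre markers in the table, which hold no sodium channel, had a log2 summed level of 11.0 to 11.6 in GFP-naive, 9.40 to 9.71 in α9k1-naive, 11.6 to 12.5 in GFP-crush and 11.9 to 12.5 in α9k1-crush. The sum was lowest in α9k1-naive, as were Scn1a and Scn4b, and it rests mostly on the neurofilament genes Nefh and Nefm. With α9k1 without crush, 3 of 8 fell (Nefh, Nefm and Pvalb) and 1 rose (Ntrk2), beside 17.6% of all genes lower and 11.4% higher. Without covariates 3 fell and 2 rose, beside 29.5% lower and 16.5% higher. The means of Ntrk2, Ntrk3, Runx3 and Etv1 were higher in α9k1-naive than in GFP-naive, so that the list did not move as a whole. The 12 nociceptor markers had a log2 summed level of 11.9 to 12.8 in GFP-naive, 12.6 to 13.3 in α9k1-naive, 11.6 to 12.8 in GFP-crush and 9.71 to 12.3 in α9k1-crush. Replicate 1 of α9k1-crush was lowest, at 9.71, as it was for Scn10a and Scn2b. The other 3 of its group were between 11.9 and 12.3. In the naive groups most of this sum came from Calca and Tac1. With α9k1 without crush 1 nociceptor marker rose (Trpv1) and 0 fell, beside the same shares of all genes. Without covariates 2 rose and 2 fell. Mean levels went up there for most of the list and down for Mrgprd and Gfra2, so that it did not move as a whole. With crush in the α9k1 groups 0 rose and 3 fell (0 and 7 without covariates). Of all genes 4.47% rose and 5.27% fell (28.5% and 27.1%). In bulk RNA, fewer cells of a type and less RNA per cell cannot be told apart. Without replicate 1 of α9k1-crush, every call of a member with covariates held, and Scn2b was lower in GFP-crush versus GFP-naive (-0.84, adjusted p = 0.0491).

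The 13 glial markers had a log2 summed level of 15.8 to 16.2 in GFP-naive, 16.3 to 16.8 in α9k1-naive, 15.2 to 15.5 in GFP-crush and 14.5 to 15.2 in α9k1-crush. The sum was thus highest where Scn1a, Scn4b and Scn7a were lowest, but it rests mostly on Apoe, whose mean log2 level over the 19 libraries was 15.4, and the list did not move as a whole. Of the 13, 3 rose (Apoe, Fabp7 and Glul) and 6 fell (Prx, Sox10, Mbp and Mag among them) with α9k1 without crush, beside 11.4% of all genes higher and 17.6% lower. Without covariates 2 rose and 8 fell, beside 16.5% of all genes higher and 29.5% lower, and Fabp7 was not called (0.23, adjusted p = 0.213). Prx, Mbp and Mag are genes of myelin. The log2 summed level of the 9 of 10 macrophage markers in the table was lowest in GFP-naive, at 7.71 to 8.21, against 9.02 to 9.98 in the other groups. With α9k1 without crush 7 of 9 rose and 0 fell, as they did with crush in the GFP groups, with or without covariates. Of all genes 11.4% and 7.39% were higher in these comparisons with covariates, and 16.5% and 11.0% without. The log2 summed level of the 4 of 8 endothelial and fibroblast markers in the table was 9.08 to 9.45 in GFP-naive, 5.94 to 7.92 in α9k1-naive, 7.84 to 8.39 in GFP-crush and 6.89 to 7.67 in α9k1-crush. All 4 of these fell with α9k1 without crush, with or without covariates, beside the same 17.6% of all genes with covariates and 29.5% without. The 12 neuronal markers had a log2 summed level of 13.2 to 13.5 in GFP-naive, 12.8 to 13.1 in α9k1-naive, 13.7 to 14.1 in GFP-crush and 13.7 to 14.1 in α9k1-crush, and their sum was thus lowest in α9k1-naive without overlap. The neurofilament gene Nefl fell there most (log2FC -2.10, adjusted p = 1.54e-05), and 2 of 12 fell and 1 rose (Prph, 0.34, adjusted p = 0.0664), beside 17.6% and 11.4% of all genes. Without covariates 4 fell and 1 rose, which was Syt1 and no longer Prph (0.21, adjusted p = 0.115), beside 29.5% and 16.5% of all genes. The means of Prph, Syt1, Elavl4 and Avil were higher in α9k1-naive than in GFP-naive, so that the neuronal list did not move as a whole. The lowest mean over the 19 libraries was 3.59 (Kcnj10) among the glial and 2.66 (Ptprc) among the macrophage markers. Genes with few reads had been removed by the authors, so that the table cannot show a marker that was absent. The part of glia, macrophages, other cells and of a different mix of neurons in the sodium channel values was not tested.

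**Figure D5:**
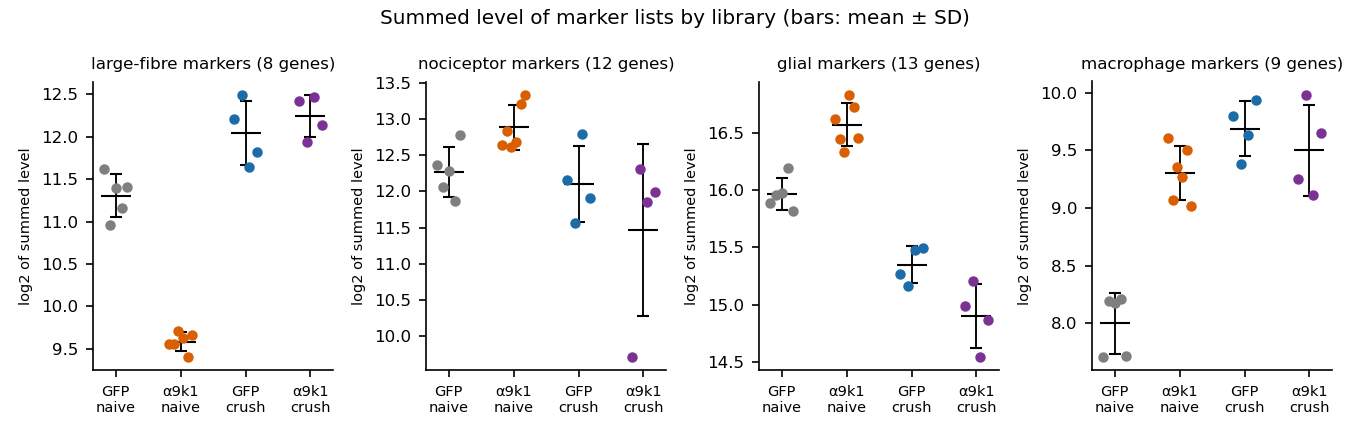
Log2 of the summed level (vertical axis, a separate scale per list) of the large-fibre, nociceptor, glial and macrophage markers in each library, with bars for the mean ± SD of the 4 groups. Large-fibre markers are lowest in α9k1-naive (9.40 to 9.71), and 1 α9k1-crush library (9.71) lies below the other 3 for nociceptor markers.

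The genes whose pattern was most like that of each member were those with the smallest root mean square difference of centred log2 levels over the 19 libraries. They were Gpr158, Nap1l2 and St3gal5 for Scn1a (0.31, 0.31 and 0.32 log2 units, where the median gene was at 0.97), and Adam11, Lrrn1 and Vamp1 for Scn4b (0.32, 0.32 and 0.34, median 0.92). For Scn9a they included Etv5 and Pde7a (0.17 and 0.19, median 0.55), and for Scn3b Arl10, Acly and Nbr1 (0.31 for all 3, median 0.79). Tusc5, 2510009E07Rik and Nat10 were nearest to Scn10a (0.35, 0.35 and 0.36, median 0.61), Gnao1, Paqr5 and Slc37a1 to Scn11a (0.33, 0.33 and 0.34, median 0.68) and Scg2, Sprn and Dusp26 to Scn2b (0.27, 0.27 and 0.29, median 0.71). Among the 7 sodium channel genes themselves, the closest pair was Scn1a and Scn4b (0.49), whose own root mean square deviations were 0.92 and 0.85.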

How the data were processed

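RNA-seq values of 19 libraries of sorted DRG cells were used, with groups and replicate numbers from the sample titles. According to the methods of the study, the authors prepared libraries with the SMART-Seq v4 kit, used STAR for alignment to mm10/GRCm38, SAMtools to drop pairs split over chromosomes and Salmon for gene counts. Versions are not given in the sources used here. The authors removed genes with few reads, and the log2 values they deposited are log2 counts with a pseudocount, adjusted for length and depth with cqn. The values carry no gene names, and the row order was that of the deposited gene table (r = 0.959 of row means with its mean column, 0.0899 when shifted by 1 row). The authors' own fold changes and p-values in that table were not used. Library metrics were deposited by the authors from Picard as counts, fractions, percent and ratio values. Some of its columns on duplicates hold a neighbouring column's values, and the paper's batch term is not in it and was left out.

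One limma fit (limma 3.58.1, R 4.3.3) to all 19 libraries took 4 group means and the first 3 principal components of 48 scaled metrics, leaving 12 residual degrees of freedom, and its moderated test was adjusted by Benjamini-Hochberg over all 12629 genes. It was tested on simulated data. The study calls the replicates biological, without saying in the sources used here whether each is a separate animal, so p-values measure the spread between libraries. All members are named in each comparison, and of partners and other family genes up to 3 called per direction with the largest log2FC, with Prkca named in addition. The members and lists were chosen with earlier results of these data known. Promoters are from RefSeq (GRCm38.p6), matched by symbol, and codons from GENCODE. Some results of related genes and sequences are not reported here. Python 3.11.15 with numpy 2.4.6, pandas 2.3.3 and matplotlib 3.10.9 made tables and figures. The alternatives were no covariates, only the 2 groups compared, removal of the 25% of genes with the lowest means, quantile or median scaling, array weights, a replicate block, an adjusted p under 0.05 and leaving out each library.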

Additional observations from a re-analysis of the deposited data

Results flagged for a closer look

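Among 36 groups examined for a library far from the others, of which chance marks about 5%, 4 held one in a sodium channel gene. Scn2b was 2.72 in replicate 2 of GFP-crush against 3.42 to 3.51 in the other 3 libraries. It was 2.57 in replicate 1 of α9k1-crush against 3.78 to 4.03 in the others. Scn3b was 4.62 in replicate 3 of GFP-naive against 5.03 to 5.17 in the others, and 6.51 in replicate 2 of α9k1-crush against 5.29 to 5.44.

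The α9k1 effect after crush differed from that without crush for 2 genes by the limma interaction. The difference was 2.38 for Scn1a (adjusted p = 0.0205) and 1.69 for Scn7a (adjusted p = 0.0646). The call of Scn1a held in 19 of 19 fits that each left out 1 library and that of Scn7a in 11.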

How the results depend on the processing

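Without covariates, the sodium channel genes called were 3 higher for α9k1-crush versus GFP-crush, 3 lower for GFP-crush versus GFP-naive, 2 higher and 1 lower for α9k1-crush versus α9k1-naive and 3 in the interaction. With only the 2 groups compared, 0 were higher and 1 (Scn1a) was lower for α9k1-naive versus GFP-naive, and 0 were higher for α9k1-crush versus α9k1-naive. Removal of the 25% of genes with the lowest means removed Scn1a itself and left 1 lower (Scn4b) for α9k1-naive versus GFP-naive, and 0 higher for α9k1-crush versus α9k1-naive and in the interaction. Over all genes, α9k1-crush versus GFP-crush had 92 higher and 23 lower, 3743 and 3580 without covariates, and 0 by limma with only the 2 groups (852 at an unadjusted p under 0.05). The interaction had 171 higher and 107 lower, 2943 and 2027 without covariates, and α9k1-crush versus α9k1-naive had 565 and 665, 3593 and 3424 without covariates and 64 and 138 with only the 2 groups. At an adjusted p under 0.05, 0 members were higher for α9k1-naive versus GFP-naive.

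Replicate numbers did not pair libraries (25 same-numbered pairs, correlation of deviations -0.269 to 0.149, 4 over 0.1). With the replicate block, 1 gene (Scn1a) was lower for α9k1-naive versus GFP-naive and 2 (Scn9a and Scn3b) for GFP-crush versus GFP-naive, where 1314 and 1865 of the 12629 genes were lower. Scn7a lost its calls for α9k1-crush versus α9k1-naive (0.78, adjusted p = 0.321) and in the interaction (0.97, adjusted p = 0.408) under the block. Scn4b lost its call for α9k1-naive versus GFP-naive there (-1.53, adjusted p = 0.148). Among the partners, Prkaca and Mapk14 (adjusted p = 0.121 and 0.117) lost theirs for GFP-crush versus GFP-naive. Nfasc, Kif5b, Calm3 and Fgf13 (adjusted p = 0.279 to 0.460) lost theirs for α9k1-crush versus α9k1-naive.

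Leaving out 1 library gave 0 to 1 higher and 2 lower for α9k1-naive versus GFP-naive, 1 to 2 lower for GFP-crush versus GFP-naive and 0 to 1 lower for α9k1-crush versus α9k1-naive. Scn3b lost its call in 11 of 19 fits. Scn2b passed for GFP-crush versus GFP-naive without replicate 3 of GFP-naive (-1.02) or replicate 1 of α9k1-crush (-0.84), and for α9k1-crush versus α9k1-naive without replicate 2 of GFP-crush (-1.91). Scn3b passed for the latter without replicate 2 of α9k1-crush (-1.09).

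Signs turned in uncalled values. For α9k1-crush versus GFP-crush without covariates, Scn10a was 0.41, Scn11a 0.14, Scn2b 0.30, Scn4b 0.54 and Nalcn 0.45, and with only the 2 groups Scn10a was 0.53, Scn11a 1.42, Scn2b 1.64, Scn7a 0.091 and Nalcn 0.30. Scn9a for α9k1-naive versus GFP-naive was 0.11 without covariates, 0.027 with the 2 groups, 0.047 with quantile normalization, 0.035 median-centred and 0.013 with array weights. For GFP-crush versus GFP-naive, Scn1a was 0.13 with the 2 groups, and Fermt1 was -0.0486 without covariates and -0.069 with the 2 groups. For α9k1-crush versus α9k1-naive, Scn9a was 0.0586 without covariates and 0.22 with the 2 groups, and without covariates Scn10a was 0.20 and Nalcn 0.77 (called). In the interaction without covariates, Scn10a was 0.62, Scn11a 0.0861, Scn3b 0.59 and Nalcn 0.72. Leaving out 1 library gave ranges across 0 of -0.83 to 0.32 (Scn10a), -1.58 to 0.00539 (Scn11a) and -1.16 to 0.33 (Scn2b) for α9k1-crush versus GFP-crush, of -0.0866 to 0.0383 (Scn9a) and -0.0717 to 0.21 (Scn11a) for α9k1-naive versus GFP-naive, of -0.41 to 0.11 (Scn11a) and -0.092 to 0.33 (Nalcn) for GFP-crush versus GFP-naive, of -0.58 to 0.43 (Nalcn) for α9k1-crush versus α9k1-naive and of -0.65 to 0.35 (Scn10a) and -0.75 to 0.10 (Nalcn) for the interaction. The causes were not tested.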
